A study of Mus musculus with 11 samples.

Results

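The 8 genes described here make up the core of MHC class II antigen presentation in the mouse: Cd74, H2-Aa, H2-Ab1, H2-Eb1, H2-DMa, H2-DMb1, H2-DMb2 and Ciita. They were taken by symbol from the 37991 genes of the count table, and all 8 were found there. MHC class II molecules display peptides from the endosomes to CD4 T cells. H2-Aa and H2-Ab1 encode the alpha and beta chains of I-A, and H2-Eb1 encodes the beta chain of I-E. Cd74, the invariant chain, fills the peptide groove during assembly and guides the complex to the endosome, where the H2-DM heterodimer (H2-DMa with H2-DMb1 or H2-DMb2) helps exchange its remnant for peptide. Ciita is the coactivator of this gene set: it does not bind DNA itself but docks on factors bound to the conserved X and Y boxes of class II promoters. Dendritic cells, B cells and macrophages are the classical class II cells, and interferon gamma is known to induce Ciita and class II in many other cell types, fibroblasts included.

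RNA was sequenced from spinal cord cells of Col1a1GFP mice on the C57BL/6 background, in which green fluorescent protein (GFP) reports use of the collagen I gene Col1a1. GFP-positive cells were sorted in health (sorted control, replicates 1, 3 and 4, n = 3) and in experimental autoimmune encephalomyelitis (EAE), a mouse disease used to model multiple sclerosis, at 5 days past symptom onset (D5, n = 3) and at 10 days (D10, n = 3). The cords of 2 to 3 animals were combined for every sorted library, and these pools are named biological replicates in the design text. The comparison tissue was homogenate of whole cord from healthy C57BL/6 mice, with 1 cord in each library (replicates 1 and 3, n = 2). All sorted groups carry the same reporter, while no whole cord library does by its label. The whole cord labels repeat the sorting protocol, and the design text, which describes homogenate, was followed. The sorted pools are defined by the GFP gate and not by a cell type.

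Library totals ran from 7123291 to 10491064 counts in the sorted groups and were 9091545 and 12238751 in whole cord. The sort was checked with Col1a1 and 11 other fibroblast markers. All 12 were called higher in sorted control than in the homogenate, and their summed level was 22775 to 28921 against 249 to 430 CPM (counts scaled to library size). Markers of mural cells (summed level 2672 to 5182 CPM in sorted control), endothelial cells (280 to 330 CPM) and astrocytes (421 to 463 CPM) also had counts in the sorted libraries, and their levels in EAE are given beside the leukocyte genes. The CPM are scaled by the trimmed mean of M values (TMM). Levels in the sorted groups and levels beside whole cord come from separate scalings. On the latter, mural markers summed to 2516 to 4823 CPM in sorted control and 153 to 261 CPM in the homogenate. All 8 mural markers were called higher in sorted control, where 26.9% of all genes tested were. Astrocyte markers summed to 396 to 431 CPM in sorted control and 5787 to 6755 CPM in the homogenate. Endothelial markers summed to 264 to 313 and 210 to 292 CPM there. In sorted control most of the astrocyte and endothelial sums came from 1 gene each, Slc1a3 and Cdh5.

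The class II promoters are shown because the X and Y boxes are the sequence through which Ciita acts, and because 4 of these genes carry both motifs close to the start site. RefSeq promoter windows (build GRCm38.p6, 250 bases before to 50 bases after the annotated start) were matched for 5 of the 8 members. Printed are the 150 bases before the start site, 5′ to 3′ on the gene's own strand. Capitals mark CTNNNAAC, letters from the X box, and TGATTGG, the inverted CCAAT of the Y box.
H2-Aa (chr17:34287824-34287973, minus strand): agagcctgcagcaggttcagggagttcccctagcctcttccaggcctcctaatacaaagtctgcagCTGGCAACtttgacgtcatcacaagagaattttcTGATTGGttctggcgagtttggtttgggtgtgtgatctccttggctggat
H2-Eb1 (chr17:34305717-34305866, plus strand): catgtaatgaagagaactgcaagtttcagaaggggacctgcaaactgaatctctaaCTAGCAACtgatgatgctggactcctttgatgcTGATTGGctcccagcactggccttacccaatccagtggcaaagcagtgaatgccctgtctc
H2-DMb1 (chr17:34153041-34153190, plus strand): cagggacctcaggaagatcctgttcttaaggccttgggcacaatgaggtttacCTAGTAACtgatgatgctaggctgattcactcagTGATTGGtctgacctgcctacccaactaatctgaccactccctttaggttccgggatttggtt
H2-DMb2 (chr17:34145099-34145248, plus strand): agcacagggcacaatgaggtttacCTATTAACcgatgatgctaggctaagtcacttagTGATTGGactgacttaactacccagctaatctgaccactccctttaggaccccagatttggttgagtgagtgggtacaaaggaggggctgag

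The first motif began 84 bases before the start site in H2-Aa, 94 in H2-Eb1, 97 in H2-DMb1 and 126 in H2-DMb2. Between the motifs lay 26 bases in H2-Aa, H2-DMb1 and H2-DMb2 and 25 bases in H2-Eb1. The spacing was therefore nearly fixed while the distance to the annotated start was not. Both strands were searched, and the motif letters were chosen after these promoters had been read. The motifs do not overlap. Of 32851 RefSeq promoter windows, 41.1% held CTNNNAAC, 7.82% held TGATTGG and 0.183% held the pair on 1 strand with 10 to 35 bases between. The pair was found in windows of 54 genes, H2-Ob, the beta chain of H2-DO, among them. The 2 windows of H2-DMa held no such pair in these letters. H2-Ab1, Cd74 and Ciita are named only. A match describes the letters and was not measured as a bound site.

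Cd74 and the classical chains H2-Aa, H2-Ab1 and H2-Eb1 stood at means of 3.45 to 10.97 CPM in healthy sorted cells and rose 9.60-fold to 24.6-fold in EAE. Of the H2-DM genes, H2-DMb2 alone passed the test, at D5 only. Ciita did not pass at either time. In edgeR's quasi-likelihood test with Benjamini-Hochberg adjustment over all genes, 5 of the 8 members were called higher at D5 than in sorted control (adjusted p under 0.05), where 13.2% of all genes tested were. At D10 4 of 8 were called higher, against 8.38% of all genes. No member was called lower at D5 or D10, against 10.7% and 4.99% of all genes. Without overlap between groups, 7 members lay above control at D5, against 22.8% of all genes. The median log2 difference of the 8 was 3.38 at D5 and 2.80 at D10, where that of all genes tested was 0.00 and 0.01. D5 and D10 were compared with the same 3 control libraries, so these counts are not independent of each other. In bulk libraries, more cells that express a gene cannot be told apart from more RNA per cell.

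Cd74 stood at 11.2, 16.9 and 4.78 CPM in sorted control replicates 1, 3 and 4. At D5 it stood at 245, 225 and 126 CPM in replicates 1, 2 and 3, and at D10 at 156, 127 and 224 CPM. All 6 EAE libraries lay above all 3 controls, with D5 replicate 3 and D10 replicate 2 the lowest of the 6. The log2 difference from control was 4.18 ± 0.41 (SE, n = 3 against 3, adjusted p = 6.59e-05, edgeR) at D5, an 18.2-fold rise. At D10 it was 3.95 ± 0.40 (adjusted p = 0.000244, edgeR), a 15.4-fold rise. Among all genes ranked by raw count within a library, not corrected for length, Cd74 moved from rank 7420 to 11375 in the controls to rank 478 to 1235 in the EAE libraries.

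H2-Ab1 had the highest estimate, though its interval overlapped that of Cd74. It read 2.32, 6.70 and 1.34 CPM in the controls, 105, 96.5 and 54.5 CPM at D5, and 55.1, 54.2 and 83.4 CPM at D10. The groups did not overlap, and control replicate 3 was the highest control, as it was for Cd74. The log2 difference was 4.62 ± 0.46 (adjusted p = 6.59e-05, edgeR) at D5 and 4.21 ± 0.45 (adjusted p = 0.000288) at D10, that is 24.6-fold and 18.5-fold. Without control replicate 3 the order turned, with H2-Aa at 5.57 and 5.34 and H2-Ab1 at 5.56 and 5.15 on the log2 scale.

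H2-Aa, its alpha chain partner, read 2.08, 8.25 and 0.191 CPM in the controls, with only 2 counts in replicate 4. It read 61.0, 56.1 and 35.5 CPM at D5 and 38.7, 32.0 and 58.6 CPM at D10. Control replicate 3 again stood above the other controls and below every EAE library. The log2 difference was 3.85 ± 0.66 (adjusted p = 0.00135, edgeR) at D5 and 3.61 ± 0.65 (adjusted p = 0.00396) at D10. Without control replicate 3 these became 5.57 and 5.34 for H2-Aa, 5.56 and 5.15 for H2-Ab1, and 4.59 and 3.99 for H2-Eb1. Leaving out control replicate 4 gave 3.27 for H2-Aa at D5. All these calls held.

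H2-Eb1, the beta chain of I-E, read 3.67, 7.11 and 1.34 CPM in the controls, 75.6, 59.2 and 41.8 CPM at D5, and 31.2, 27.2 and 57.9 CPM at D10. No row bore the symbol H2-Ea, the gene of its alpha chain partner. The values are of H2-Eb1 RNA alone and do not show that an I-E molecule was made. Again no EAE library reached down to the controls. The log2 difference was 3.87 ± 0.47 (adjusted p = 0.000181, edgeR) at D5 and 3.26 ± 0.47 (adjusted p = 0.00121) at D10. The same libraries stood high or low for all 3 chains and Cd74: D5 replicate 3 was the lowest at D5, and D10 replicate 3 was the highest at D10. The ratio of H2-Ab1 to H2-Aa raw counts, not corrected for length, stayed between 1.42 and 1.73 in the 6 EAE libraries.

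**Figure D1:**
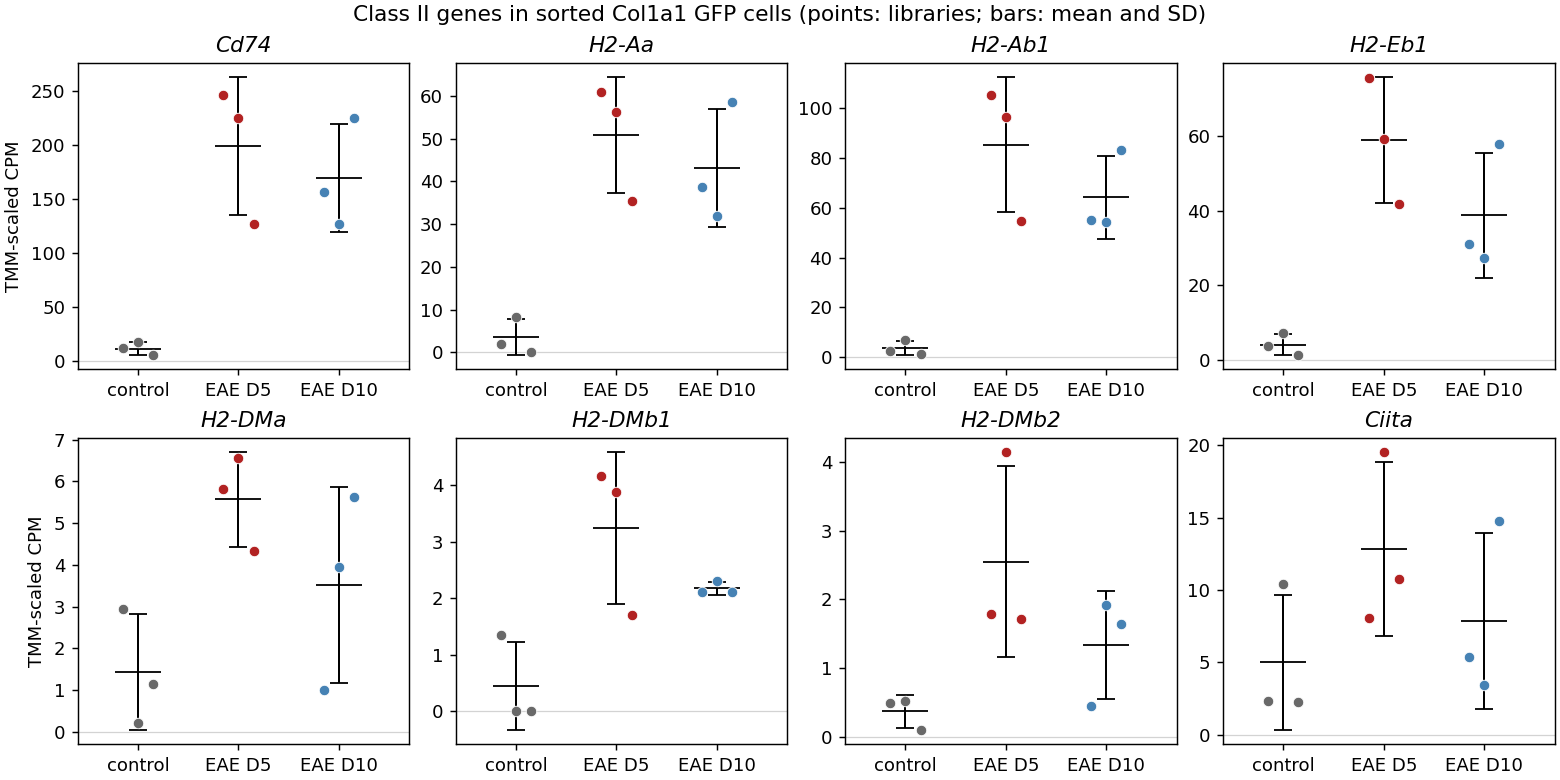
Level of each of the 8 class II genes in the 9 sorted libraries, in TMM-scaled CPM (vertical axis, a separate linear scale per gene), by group. Points are libraries, and the horizontal lines and bars are the mean and SD (n = 3). For Cd74, H2-Aa, H2-Ab1 and H2-Eb1 all EAE points lie above all control points, while for Ciita the groups overlap.

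The H2-DM genes were far less abundant, and few counts lie behind each value. H2-DMa, the alpha chain of the peptide exchange factor, read 2.93, 0.206 and 1.15 CPM in the controls, 5.83, 6.57 and 4.33 CPM at D5 and 1.00, 3.94 and 5.63 CPM at D10. Its D5 libraries lay above the controls, and its D10 libraries overlapped them. The log2 difference was 1.98 ± 0.77 (adjusted p = 0.0828, edgeR) at D5 and 1.32 ± 0.77 (adjusted p = 0.293) at D10.

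H2-DMb1 had 11 counts in control replicate 1 and 0 in replicates 3 and 4. It had 13 to 35 counts in the D5 libraries and 18 to 24 in the D10 libraries. Both EAE groups lay above the controls, yet the adjusted p was 0.0723 at D5 and 0.183 at D10 (edgeR, log2 difference 2.91 ± 1.09 and 2.33 ± 1.08). Without control replicate 1, where all other controls are at 0, H2-DMb1 was called at both times and H2-DMa at D5.

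H2-DMb2 read 0.489, 0.515 and 0.0955 CPM in the controls, 1.78, 4.15 and 1.71 CPM at D5, and 0.445, 1.92 and 1.64 CPM at D10. D5 lay above the controls, and 1 D10 library fell among them. The log2 difference was 2.77 ± 0.86 (adjusted p = 0.0344, edgeR) at D5 and 1.85 ± 0.86 (adjusted p = 0.183) at D10. This D5 call ended on leaving out any 1 of control replicates 1, 3 and 4, D5 replicates 1, 2 and 3 or D10 replicate 3 (adjusted p 0.0533 to 0.154). The longest transcripts of H2-DMb1 and H2-DMb2 were identical at 94.6% of 1219 aligned bases, so the authors' counting may split reads between them and the separate values are uncertain.

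Ciita read 2.32, 10.4 and 2.29 CPM in the controls, 8.09, 19.6 and 10.8 CPM at D5, and 5.34, 3.46 and 14.8 CPM at D10. Control replicate 3, with 101 counts, lay inside the range of both EAE groups, while the other controls lay below every EAE library. The log2 difference was 1.35 ± 0.65 (95% interval -0.05 to 2.74, adjusted p = 0.152, edgeR) at D5. At D10 it was 0.64 ± 0.65 (interval -0.76 to 2.04, adjusted p = 0.581). Ciita depended on single libraries: without control replicate 3 its D5 difference was 2.45 (adjusted p = 0.0178), and without D10 replicate 3 its D10 difference was -0.20.

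Ciita and its target Cd74 thus kept no constant ratio. Cd74 raw counts were 1.62 to 4.84 times those of Ciita in the controls and 11.5 to 36.6 times in the EAE libraries. Whole cord libraries gave 0.941 and 0.889. Control replicate 3, the control with most Ciita, also had most Cd74, H2-Aa, H2-Ab1 and H2-Eb1, but not H2-DMa or H2-DMb1. A second row of the table also bore the symbol Ciita. It held 0 to 10 counts per library and was left out in favour of the row with most counts.

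**Figure D2:**
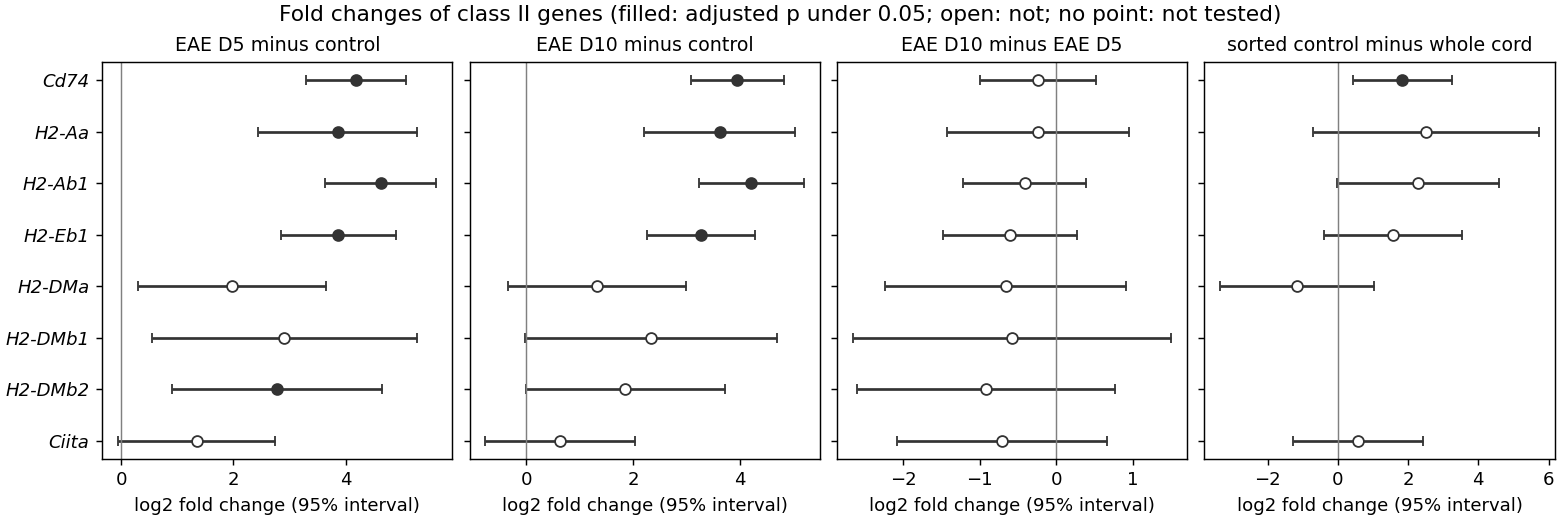
Log2 difference of each class II gene in the 4 comparisons (horizontal axis, a separate range per panel), with its 95% interval from edgeR. Filled points have an adjusted p under 0.05, open points do not, and a missing point was not tested. The 4 uppermost genes are filled and lie between 3.26 and 4.62 in both EAE panels, and no point is filled for D10 against D5.

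Between D10 and D5, all 8 fitted differences were negative and none passed the test, where 0.131% of all genes did and 8.47% had an unadjusted p under 0.05. None of the 8 members had an unadjusted p under 0.05. For Cd74 the log2 difference was -0.23 with a 95% interval of -0.99 to 0.52. For H2-Ab1 it was -0.41 (-1.21 to 0.39), for H2-Aa -0.24 (-1.43 to 0.95) and for H2-Eb1 -0.61 (-1.48 to 0.26). These intervals include no change and also a fall to below 1/2 of the D5 level for H2-Ab1, H2-Aa and H2-Eb1. H2-DMb2 had the lowest estimate at -0.92 (-2.60 to 0.76), and every member's groups overlapped.

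Per length of messenger RNA (GENCODE vM21), Cd74 was the most abundant member in all 3 sorted groups, at 7.78 ± 4.30 CPM per kilobase (SD, n = 3) in control, 141 ± 45.2 at D5 and 120 ± 35.5 at D10. H2-Ab1 came next in both EAE groups, at 70.5 ± 22.4 and 53.0 ± 13.7 CPM per kilobase, with no library at the level of Cd74 in the same group. H2-Aa and H2-Eb1 followed at D5 with 45.1 ± 12.03 and 35.3 ± 10.2 CPM per kilobase, and their order turned when merged exons replaced the messenger RNA length. H2-Ab1, H2-Aa and H2-Eb1 overlapped as neighbours in this order at D5. H2-DMa (3.36 ± 0.69), Ciita (3.02 ± 1.42), H2-DMb1 (2.32 ± 0.96) and H2-DMb2 (1.79 ± 0.98 CPM per kilobase) lay together far below the chains at D5, in overlapping ranges.

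In health, sorted cells and whole cord were compared in a separate fit of 5 libraries. Of the 6 members with enough counts to be tested, Cd74 alone was called higher in sorted cells, where 26.9% of all genes tested were. H2-DMb1 and H2-DMb2 fell below the expression filter. Cd74 had 16 and 40 counts in whole cord, which gave 1.96 and 3.70 CPM, below the 3 controls at 4.52 to 15.7 CPM. This call rested on single libraries: it held when control replicate 4 was left out and ended when any other library was (adjusted p 0.0574 to 0.203).

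Cd74 and H2-Ab1 lay above whole cord in all 3 controls, against 36.0% of all genes, and H2-DMa lay below in all 3, against 38.3%. H2-Ab1 stood at 1.27 to 6.24 against 0.245 and 1.017 CPM but did not pass (log2 difference 2.29, adjusted p = 0.0839, edgeR). H2-Aa (2.51, adjusted p = 0.157) and H2-Eb1 (1.57, adjusted p = 0.151) overlapped between the preparations. H2-DMa was the exception in sign among the members tested: whole cord stood at 2.82 and 3.14 CPM, above the controls at 0.192 to 2.76 CPM, and the difference did not pass (-1.16, adjusted p = 0.324). H2-DMb1, which was not tested there, also had the lower mean in control, at 0.422 against 0.891 CPM. Ciita differed by 0.58 (adjusted p = 0.562), and by -0.51 without control replicate 3. Values of the chains in whole cord rest on 2 to 19 counts per library.

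Leukocyte transcripts rose beside the class II genes in the EAE sorts. All 16 pan-leukocyte genes were called higher at D5 and 13 of 16 at D10, and their summed level went from 17.4 to 62.3 CPM in control to 318 to 593 CPM at D5 and 211 to 338 CPM at D10. Ptprc, the common leukocyte antigen CD45, read 6.60, 1.44 and 1.82 CPM in the controls, 50.4, 78.4 and 39.3 CPM at D5, and 24.8, 24.6 and 37.3 CPM at D10. It rose by 4.13 ± 0.47 on the log2 scale at D5 (adjusted p = 0.000134, edgeR) and by 3.17 ± 0.46 at D10 (adjusted p = 0.00137). Cd74 and the chains rose by 3.85 to 4.62 at D5 and by 3.26 to 4.21 at D10 on the same scale. Lcp1, an actin bundling protein of leukocytes, went from a mean of 2.48 CPM to 61.9 and 34.5 CPM. The part of leukocytes in the class II values was not tested.

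T cells, which carry little class II in mice, gave summed marker levels of 2.78 to 8.88 CPM in control, 103 to 203 CPM at D5 and 50.9 to 69.9 CPM at D10. Of 14 T cell genes, 13 were called higher at D5 and 12 at D10. Il7r, Trac, Trbc1 and Trbc2 were at 0 in every control. Cd3e, a T cell receptor subunit, had 2, 0 and 0 counts in the controls, 35 to 102 at D5 and 17 to 37 at D10. Cd4 went from a mean of 0.587 CPM to 27.2 and 8.83 CPM.

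B and plasma cell genes summed to 4.64 to 10.0 CPM in control, 160 to 233 CPM at D5 and 219 to 886 CPM at D10. Most counts of the list in EAE were of the immunoglobulin light chain Igkc, and D10 replicate 1 alone held 6841 of them. Of the 12 genes with a row, 5 were tested, with 3 called higher and 1 lower at D5 and 4 higher and 0 lower at D10. Cd79a, the B cell receptor signalling chain, fell by 2.81 on the log2 scale at D5 (adjusted p = 0.0278, edgeR). Ms4a1, Pax5, Cd22 and Blk were at 0 in every control. In the EAE libraries they held few counts as well: Ms4a1 was at 0 throughout D5 and reached at most 9 at D10, Pax5 had 1 count in all at D5 and 0 at D10, Cd22 reached at most 7 and 30, and Blk at most 12 and 5. Bank1 was at 0 in all EAE libraries. None of these 5 genes was tested.

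Dendritic cell genes summed to 42.7 to 53.6 CPM in control, 76.2 to 99.1 CPM at D5 and 61.9 to 66.7 CPM at D10, with 5 and 3 of 8 tested called higher. The gene with most counts among them, the transcription factor Zbtb46, made up most of the control sum. It did not pass at either time and stood at group means of 39.6, 36.7 and 39.9 CPM. Ccr7 went from a mean of 0.0815 to 16.9 and 7.69 CPM, and Clec9a from 7.23 to 4.03 and 3.33 CPM. Itgax (CD11c) had 0 counts in the 3 controls, 34 to 46 at D5 and 31 to 63 at D10, with Cd209a and Clec10a also at 0 in every control. Flt3, a receptor of dendritic cell precursors, rose at D5 (log2 difference 3.97, adjusted p = 0.0207, edgeR) and missed the test at D10 (adjusted p = 0.219).

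Macrophage and microglia genes summed to 109 to 122 CPM in control, 228 to 392 CPM at D5 and 261 to 643 CPM at D10, with 12 and 13 of 19 called higher. Lyz2, lysozyme of myeloid cells, rose from a mean of 14.2 CPM to 111 and 192 CPM. Tmem119, with the highest control mean of the list, stood at means of 33.2, 30.6 and 43.2 CPM in control, D5 and D10. Cd68 stood at 14.7, 9.54 and 15.5 CPM, and Mrc1 at 2.50, 1.01 and 1.93 CPM. Csf1r, the receptor that maintains macrophages and microglia, missed the threshold at D5 (adjusted p = 0.0512) and rose at D10 by 1.75 on the log2 scale (adjusted p = 0.00296, edgeR). Its counts were 63 to 100 in the controls, so Csf1r was well above 0 in health, and Trem2 was at 0 there. Neutrophil and monocyte genes, of which Ngp had the highest mean in control and Plac8 at D5 and D10, summed to 2.48 to 44.1, 62.8 to 167 and 44.1 to 106 CPM, with 4 and 3 of 8 called higher. The part of these cells was not tested either.

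Markers of cells other than leukocytes also differed between the groups. Endothelial genes summed to 280 to 330 CPM in control, 558 to 665 CPM at D5 and 456 to 500.3 CPM at D10, without overlap. Of the 10, 2 were called higher at each time and 0 and 1 called lower. Of all genes tested, 13.2% and 8.38% were called higher at D5 and D10. Cdh5 made up most of this endothelial sum, at means of 219, 461 and 393 CPM. Emcn went from 7.67 to 62.4 and 36.3 CPM, and Tie1 from 11.8 to 7.73 and 6.85 CPM. Pecam1 stood at 3.35, 5.99 and 4.13 CPM. Astrocyte genes summed to 421 to 463, 568 to 589 and 517 to 635 CPM, with 2 of 5 called higher and 1 lower at each time. Gfap, the astrocyte filament gene, rose from a mean of 6.95 CPM to 57.3 and 71.4 CPM. Aqp4, the water channel of astrocyte endfeet, rose from 1.87 to 22.8 and 21.6 CPM. Aldh1l1, of the same list, went the other way, from 58.2 to 10.7 and 24.5 CPM. Slc1a3 made up most of the astrocyte sum, at means of 367, 462 and 449 CPM. Mural genes summed to 2672 to 5182 CPM in control, 1990 to 3641 CPM at D5 and 851 to 1780 CPM at D10, with 2 of 8 called higher and 2 lower at D5 and 0 higher and 4 lower at D10. The part of these cells in the class II change was not tested.

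Set against Ptprc library by library, Cd74 raw counts were 1.70, 11.7 and 2.63 times as many in control replicates 1, 3 and 4. The ratio was 4.87, 2.87 and 3.21 at D5 and 6.30, 5.15 and 6.01 at D10, and 0.302 and 1.05 in whole cord. The D10 ratios lay above the D5 ratios, the control values spanned both, and control replicate 3, at 14 Ptprc counts, was the highest of all. Cd74 to Csf1r was 0.500 to 2.60 in the controls, 8.66 to 15.4 at D5 and 5.25 to 7.41 at D10. Col1a1, the gene of the reporter, rose as well, from 42191 to 85858 counts in the controls to 92453 to 252479 in the EAE libraries, and Cd74 per Col1a1 count was 0.000582 to 0.00218 in control and 0.00678 to 0.0181 in EAE. The fibroblast markers did not move one way: of the 12, 6 were called higher and 4 lower at D5, and 5 higher and 1 lower at D10. Dcn, which encodes decorin, fell from a mean of 6573 CPM to 3166 and 3407 CPM, and Tbx18, a mural and fibroblast transcription factor, fell from 151 to 69.7 CPM at D5 and stood at 115 CPM at D10, where it did not pass.

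**Figure D3:**
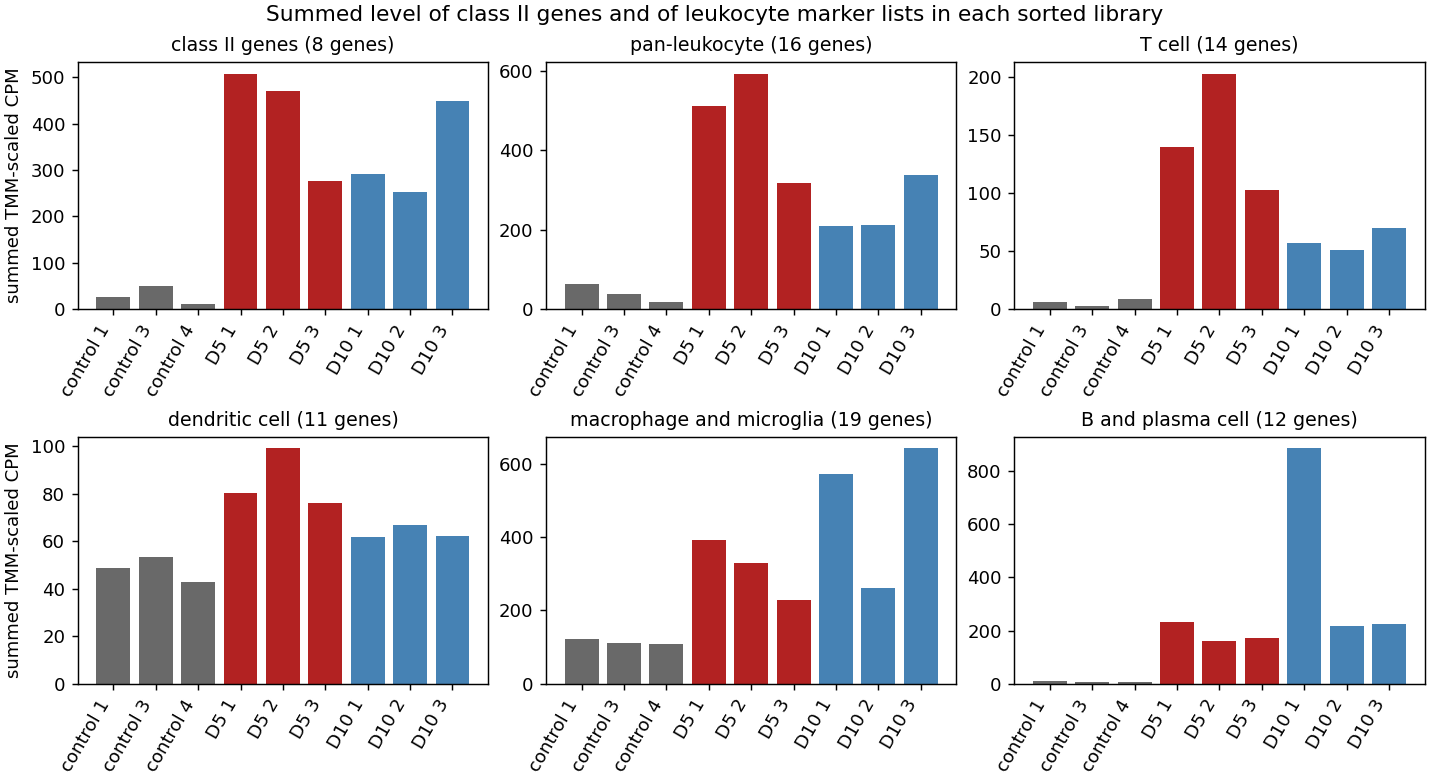
Summed level of the 8 class II genes and of 5 leukocyte marker lists in each of the 9 sorted libraries, in TMM-scaled CPM (vertical axis from 0, a separate scale per panel). Bars are single libraries, in grey for control, red for D5 and blue for D10. The class II sum was 11.2 to 50.1 CPM in control, 276 to 507 CPM at D5 and 252 to 448 CPM at D10. D5 replicate 3 and D10 replicate 3 stand apart from their group in the pan-leukocyte panel as in the class II panel. In the macrophage and microglia panel D10 replicate 2 stands apart, at 261 against 572 and 643 CPM. The fibroblast marker sum, not drawn, was highest in D5 replicate 3 (53291 CPM) and in D10 replicate 3 (71007 CPM) of their groups.

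Genes of peptide loading around the class II molecules did not all move the same way. Ctss, the cathepsin S protease that trims the invariant chain in professional presenting cells, read 1.34, 7.52 and 0.669 CPM in the controls, 88.5, 82.4 and 47.9 CPM at D5, and 99.9, 44.0 and 120 CPM at D10. The groups did not overlap, and control replicate 3 was the highest control here too. Its rise was 4.51 ± 0.63 at D5 (adjusted p = 0.000411, edgeR) and 4.77 ± 0.63 at D10 (adjusted p = 0.000842) on the log2 scale. Lgmn, the endosomal asparaginyl protease, rose 3.17-fold and 3.93-fold.

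Ctsl, the cathepsin that trims the invariant chain in thymic epithelium, did not pass (361 and 366 against 325 CPM). Ifi30, the thiol reductase of the endosome, fell, from 73.4 to 80.6 CPM in the controls to 31.4 to 48.8 CPM at D5 and 41.0 to 49.1 CPM at D10. In all, of 9 such genes tested, 2 were called higher and 2 lower at D5, and 3 higher and 1 lower at D10. Of all genes tested, 13.2% were called higher and 10.7% lower at D5, and 8.38% and 4.99% at D10. The counts of this short list were not tested against these shares. Against whole cord, Ctss and Lgmn were lower in healthy sorted cells, by 4.26 and 3.10 on the log2 scale, and Ctsl and Ifi30 were higher, by 2.59 and 5.89 (all called, edgeR).

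None of the 7 promoter factors (Rfx5, Rfxap, Rfxank, Nfya, Nfyb, Nfyc and Creb1), known partners of Ciita on class II promoters, was called at D5 or D10. Their binding to the promoters shown above was not measured. Rfx5 stood at 17.8 to 21.1 CPM in the controls, 12.996 to 16.4 CPM at D5 and 14.9 to 19.7 CPM at D10, with a log2 difference of -0.46 (95% interval -0.91 to -0.02, adjusted p = 0.120, edgeR) at D5. Their median difference was -0.06 at D5 and -0.05 at D10.

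Interferon gamma signalling, the known inducer of Ciita, was represented by 10 genes, of which 7 were called higher at D5 and 4 at D10, with 0 lower. Ifng itself had 0 counts in all controls, 37, 26 and 4 at D5 and 12, 3 and 13 at D10. Its receptor chain Ifngr1 did not pass (117, 119 and 104 CPM as group means), and Ifngr2 rose at D5 (log2 difference 0.80, adjusted p = 0.0227, edgeR).

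Irf1, which binds the interferon-responsive Ciita promoter, did not pass at either time (log2 difference -0.37 and -0.02) and stood at 104 to 242 CPM in the controls. Against whole cord, Irf1 was 5.87 higher on the log2 scale in healthy sorted cells (adjusted p = 4.58e-05, edgeR). Nlrc5, the coactivator of class I genes and a relative of Ciita, rose 11.5-fold at D5 and 7.19-fold at D10 (adjusted p = 0.000105 and 0.000842), without overlap between groups. Its controls stood at 2.16 to 6.78 CPM, with replicate 3 the lowest, where for Ciita replicate 3 was the highest. Irf8, a myeloid and B cell factor that interferon gamma also induces, rose 15.5-fold and 11.9-fold.

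Costimulatory and inhibitory molecules that accompany class II on presenting cells were listed together, the inhibitory ligands Cd274 and Pdcd1lg2 among them. Of 7 tested, 5 were called higher and 1 lower at D5, and 2 higher and 1 lower at D10. Cd86 had 0, 10 and 0 counts in control replicates 1, 3 and 4, 34 to 67 at D5 and 27 to 65 at D10. Control replicate 3 thus held all the Cd86 counts of the controls. Cd40 and Cd80 rose at D5 (4.64-fold and 4.58-fold, adjusted p = 0.00601 and 0.00859, edgeR) and missed the test at D10 (2.57-fold and 2.41-fold, adjusted p = 0.0830 and 0.125). Icosl, the ligand of ICOS, fell at both times, from a mean of 30.4 CPM to 14.5 and 17.2 CPM, and Cd274 (PD-L1) rose at both, to means of 24.7 and 19.2 CPM from 6.53 CPM. At D10, Cd274 overlapped the controls (4.43 to 7.83 CPM), since D10 replicate 1 read 6.90 CPM and the others 29.6 and 21.1 CPM.

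Likeness to Cd74 was described by Pearson's r of log2 CPM over the 9 sorted libraries, which fall into a control and an EAE cluster, so any gene that rises in EAE scores high. H2-Ab1 (0.995) and H2-Eb1 (0.990) ranked first, and H2-Aa reached 0.971. H2-DMb1 (0.853), H2-DMb2 (0.819), Ciita (0.657) and H2-DMa (0.627) lay lower, on fewer counts. The 8 most alike genes outside the members were Lilrb4, Galns, Fyb, Cytip, Lgals3, Nckap1l, Ctss and C1ra, with r from 0.983 to 0.990.

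Lilrb4, an inhibitory receptor of myeloid cells, Fyb, a T cell and platelet adaptor, and Nckap1l, a leukocyte actin regulator, had control means of 0.335, 3.18 and 1.43 CPM and D5 means of 12.1, 27.5 and 13.9 CPM. Cytip, also of leukocytes, went from 0.991 to 43.0 CPM at D5. Lgals3, which encodes galectin-3, went from 4.24 to 16.8 CPM. Galns, a lysosomal sulfatase, and C1ra, a complement protease, were higher in control, at 9.98 and 69.3 CPM, and reached 19.1 and 211 CPM at D5. Ptprc had r = 0.928.

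**Figure D4:**
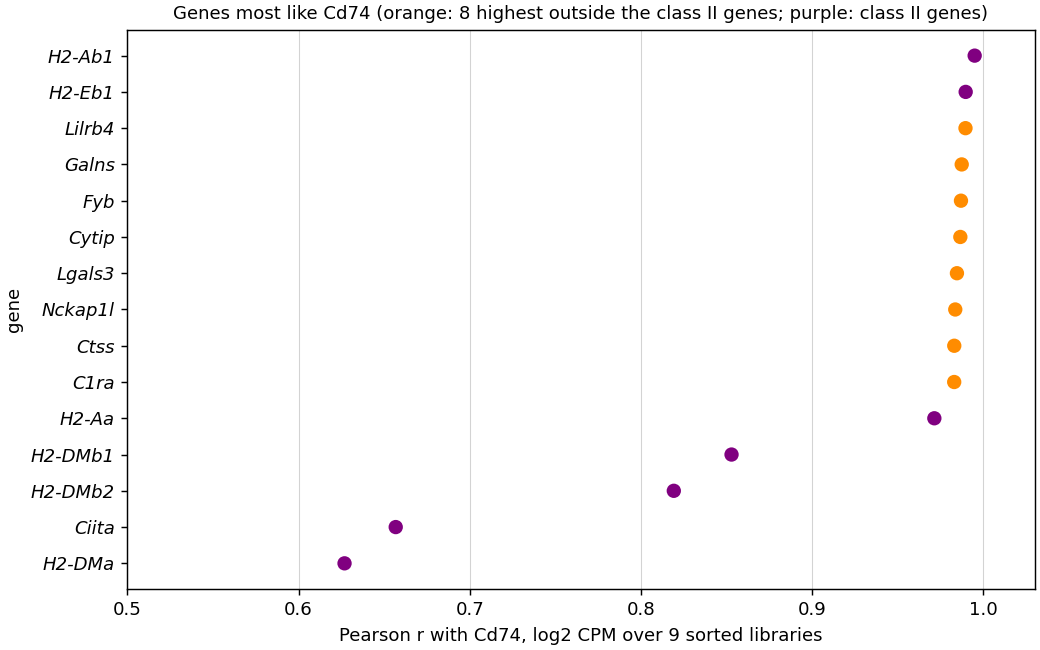
Pearson's r with Cd74 (horizontal axis, from 0.5) of log2 CPM over the 9 sorted libraries, for the other 7 class II genes (purple) and the 8 most alike genes outside them (orange). H2-Ab1 and H2-Eb1 lie at the top, the 8 other genes between 0.983 and 0.990, and Ciita and H2-DMa at the bottom with 0.657 and 0.627.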

How the data were processed

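RNA of 9 libraries of sorted GFP-positive cells and 2 of whole cord was read paired-end at 100 bases, per the labels' protocols. The submitters' processing notes name build mm9 and, without their roles, HTSeq 0.6.1, SAMtools 0.1.19, Bowtie2 2.2.1, TopHat2 2.0.11 and DESeq2. The sources used here do not give the gene annotation or the use of strand, so reads of overlapping or antisense genes cannot be told apart. The authors deposited raw counts per gene and, per the file headers, CPM; each deposited CPM value equalled the count per summed count of its library within 1e-09, so tests used the counts. The line of column totals was left out, 24 symbols that had turned into dates were restored, and 3401 genes with a repeated symbol were kept by identifier.

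Counts were tested with edgeR 4.0.16 (R 4.3.3; TMM, filterByExpr, quasi-likelihood test, Benjamini-Hochberg over all genes, threshold 0.05), in 1 fit of the 9 sorted libraries (15972 genes) and 1 of the 5 healthy libraries (16562 genes). The scripts were tested on simulated counts. Alternatives were DESeq2 1.42.0, its size factors in edgeR, library totals alone, no expression filter, limma voom 3.58.1, only the groups compared, all 11 libraries in 1 fit, a replicate block and leaving out each library. Log2 CPM for likeness had a prior count of 2. The members and the gene lists were chosen with earlier results of these data known. Named genes are all 8 members, a fixed set from each accompanying list (Ifng, Ifngr1, Irf1, Nlrc5, Rfx5, Ctss, Cd40, Cd80, Cd86, Ptprc, Cd3e, Cd79a, Itgax, Flt3, Csf1r and Col1a1, with 1 more that is not reported here), the called genes of the accompanying lists with the largest change and at least 5 CPM, the most abundant gene of each leukocyte list and the 8 genes most like Cd74. Ctsl, Ifi30, Ifngr2, Icosl, Cd274, Plac8, Gfap, Aqp4, Aldh1l1, Slc1a3, Cdh5, Emcn, Pecam1, Tie1, Dcn, Tbx18, Bank1 and the genes at 0 were named after their values were seen. The same holds for Rfxap, Rfxank, Creb1, Pdcd1lg2, Ccr7, Clec9a, Tmem119, Cd68 and Mrc1. Depth of 7123291 counts or more per library leaves the H2-DM genes on few counts.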

Additional observations from a re-analysis of the deposited data

How the results depend on the processing

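The D5 and D10 calls of Cd74, H2-Aa, H2-Ab1 and H2-Eb1 held under all 17 alternatives, with log2 differences of 3.27 to 5.57 at D5 and 2.83 to 5.34 at D10, and H2-Aa reached 5.04 and 4.77 with limma voom. With no expression filter 8 members were called at D5, and the range on leaving out 1 library was 4 to 6 at D5 and 4 to 5 at D10. With DESeq2 7 were called at D5, H2-DMa and H2-DMb1 among them, and with limma voom 6, without H2-DMb2 (adjusted p = 0.0664). Against whole cord, members called numbered 0 with limma voom, 2 with all 11 libraries in 1 fit, 2 with the replicate block and 0 to 4 on leaving out a library. On leaving out a library, Ciita ran from -0.20 (without D10 replicate 3) to 1.75 at D10 and from -0.51 (without control replicate 3) to 1.13 against whole cord, and the cause of the reversals was not tested.

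Over all genes, calls at D5 (3817) numbered 2446 to 3990 on leaving out 1 library, lowest without D5 replicate 3. Calls at D10 (2136) numbered 1045 to 2031, lowest without D10 replicate 3. Between D10 and D5 (21 calls) DESeq2 gave 174, no expression filter 265, limma voom 33, only the groups compared 3 and leaving out a library 1 to 218, the last without D10 replicate 3. Against whole cord (9208 calls) the range was 5973, without whole cord replicate 1, to 10053. Scaling by library totals alone turned its split from 4462 higher and 4746 lower to 5505 and 3922.

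Same-numbered deviations from the group means correlated at -0.08 to 0.17 in 7 pairs and others at -0.19 to 0.15 in 20. These ranges overlap, and so few pairs cannot settle whether the replicate numbers pair the samples. With the replicate block 4 members were called at D5, without H2-DMb2 (1.84, adjusted p = 0.220), and 4 at D10. Few counts limit the H2-DM genes and all class II values of whole cord, 3 libraries a group limit the precision, and the labels name no molecular identifiers.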
